A study of Mus musculus with 20 samples.

Results

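Chrna4 encodes the alpha 4 subunit of the neuronal nicotinic acetylcholine receptor, and its transcript was followed here liver by liver in mice given corticosterone (CORT), a neutralising antibody against acyl-CoA binding protein (αACBP), or both. The gene is 1 of the 48440 genes counted. It was chosen by its fall with CORT under the isotype antibody in an earlier analysis of these counts, so that difference, and any other that rests on an isotype group, is described here and not tested. The only comparison of Chrna4 that is tested is CORT against vehicle under αACBP, whose 10 livers took no part in that choice.

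The livers came from female C57BL/6 wild-type mice, 8 weeks old when the experiment began, with 5 animals in each of 4 groups. Isotype + Vehicle mice received an isotype control IgG2a and ethanol vehicle in their drinking water. Isotype + CORT mice received the same control antibody with CORT at 100 µg/ml in the water. αACBP + Vehicle and αACBP + CORT mice received the antibody against ACBP in place of the control, each antibody being injected at 5 mg/kg, 2 times per week, and treatment lasted 5 weeks in all groups. Each liver gave 1 bulk RNA library from whole tissue.

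Nicotinic receptors are pentameric cation channels that open when acetylcholine binds. The alpha 4 subunit carries part of the binding site and pairs with the beta 2 subunit (Chrnb2) in the main high-affinity nicotine receptor of the brain. Other subunits belong to the receptors of autonomic ganglia (Chrna3, Chrnb4), to the homomeric alpha 7 receptor of neurons and macrophages (Chrna7) or to the muscle endplate (Chrna1, Chrnb1, Chrnd, Chrne, Chrng). The liver receives cholinergic input through the vagus nerve, and CORT acts on hepatocytes through the glucocorticoid receptor Nr3c1.

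In the GRCm39 annotation (GENCODE M39) Chrna4, ENSMUSG00000027577.14, lies on the minus strand at chr2:180660173-180685339 and has 9 transcripts whose exons cover 5228 bases in 10 blocks. No exon base overlaps an exon of another gene on either strand, and 0 of its 5710 words of 100 bases occur in another gene's transcripts, so its counts are not split with a near-identical copy. RefSeq's promoter table for GRCm38.p6 places the gene's start 146 bases downstream of the GENCODE start at 180681116, which 3 of the 9 transcripts share. The stretch just before that start, chr2:180681117-180681220 in GRCm39, is printed 5′ to 3′ on the gene's strand, because it is the promoter-side DNA of the transcript described here. It lies within the span of 1 transcript, Chrna4-203, which starts farther upstream at 180685339. Capitals mark a GC box (GGGCGG, here as its reverse complement).
Chrna4 upstream: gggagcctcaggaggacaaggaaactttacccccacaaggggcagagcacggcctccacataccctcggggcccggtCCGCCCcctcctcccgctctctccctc
The RefSeq window of 250 bases before to 50 after the start was 74.3% G and C, against a median of 52.7% over 32817 promoters. GGGCGG occurred 3 times in it on the 2 strands together, and 35.6% of all promoters hold at least 1. None of CACGTG (in 7.15% of promoters), TTATGTAA (0.935%), TTACGTAA (0.119%), AGAACA (19%), AGGTCA (16.3%), CCAAT (37.4%) and TGTTTAC (3.65%) was found on either strand of the window. Which annotated start the liver uses is not known from gene counts.

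The libraries held about 14935000 to 20300000 fragments counted on genes, and 3 counts correspond to at most 0.205 CPM (counts scaled to a common library size with TMM factors), a floor that covers counting error only. Of all genes, 16071 passed edgeR's count filter. To be called, a gene needed a log2 fold change of at least 1 in size and, in edgeR's quasi-likelihood test, a p of 0.05 or less after Benjamini-Hochberg adjustment. Counts of genes at an unadjusted p below 0.05 are given without the share of all genes there, and so have no background. Hepatocyte markers summed to between 36062 and 135600 CPM in every liver. One library stood apart from its label, αACBP + CORT replicate 5. Of the 312 genes called between Isotype + CORT and Isotype + Vehicle, 58.7% lay nearer to the αACBP + Vehicle mean than to the mean of its own group in this liver, against 28.2% to 41% in the other αACBP + CORT livers. The main results that use it are therefore given with and without it. Because it was set apart by its likeness to vehicle livers, leaving it out favours calls with CORT under αACBP. Values without it are descriptions.

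Chrna4 was abundant in vehicle-treated livers and far lower in most livers of CORT-treated mice. Only Isotype + CORT replicate 1, with 0 counts, was at the floor. Under isotype and vehicle it stood at 171, 181, 157, 727 and 126 CPM in replicates 1 to 5, from 2839, 2966, 3098, 11607 and 2100 counts. Under isotype and CORT it stood at 0, 3.85, 4.43, 7.11 and 2 CPM, from 0, 77, 83, 109 and 31 counts. The groups did not overlap, the highest CORT liver being far below the lowest vehicle liver. The means were 272 ± 255 (SD, n = 5) and 3.48 ± 2.67 CPM (SD, n = 5), and the log2 fold change was -6.28 ± 1.39 (SE), a 77.7-fold fall. This difference chose the gene and carries no test. In this comparison 1.94% of tested genes were called, and the groups did not overlap for 5.04% of them. The vehicle mean owed much to replicate 4; without it the other 4 vehicle livers averaged 159 ± 24.1 CPM (SD), and the log2 fold change was -5.50. In whole tissue, fewer cells that express a gene and less of its RNA per cell cannot be told apart.

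**Figure D1:**
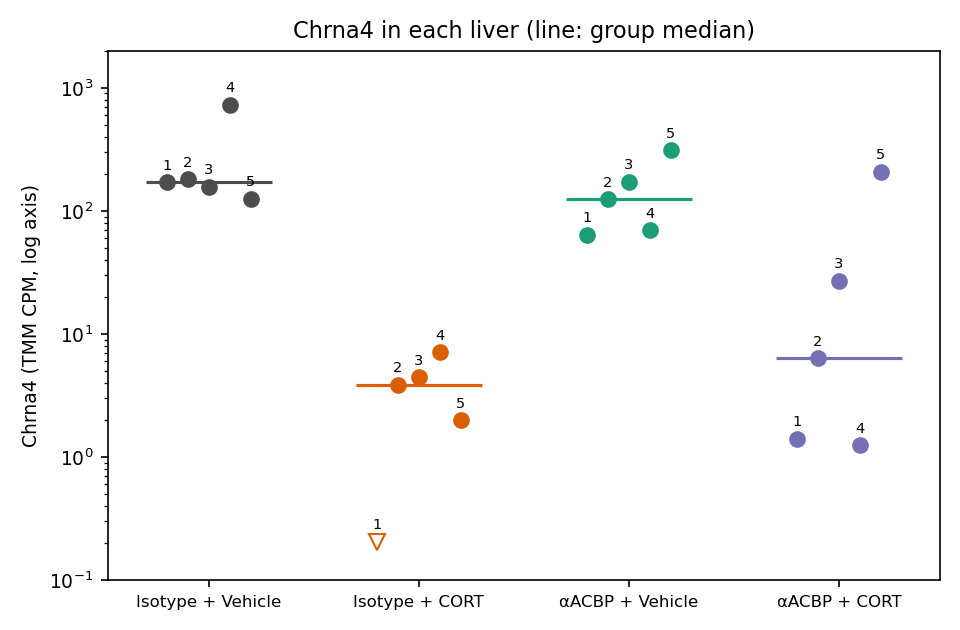
Chrna4 in TMM-scaled CPM on a log axis for each of 20 livers, by group, with replicate numbers above the points and the group median as a line. The open triangle stands at the floor of 3 counts for the liver with 0 counts. Of the 10 CORT livers, 9 lie below the lowest of the 10 vehicle livers, and αACBP + CORT replicate 5, at 208 CPM, lies within the vehicle range.

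Under αACBP the same direction appeared in 4 of the 5 CORT livers. αACBP + Vehicle livers had 63.8, 125, 173, 69.7 and 310 CPM in replicates 1 to 5, from 1142, 2326, 2869, 1265 and 6425 counts. αACBP + CORT livers had 1.41, 6.37, 27.2, 1.24 and 208 CPM, from 21, 99, 473, 21 and 3850 counts. Replicates 1 to 4 were all below the lowest vehicle liver, whereas replicate 5 exceeded all but 1 of the αACBP + Vehicle livers. The means were 148 ± 101 and 48.8 ± 89.6 CPM (SD, n = 5 each).

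The test of this comparison depended on how replicate 5 was weighted. The edgeR fit, which compares mean levels, gave a log2 fold change of -1.60 ± 1.12 (SE) with an adjusted p of 0.606 (edgeR's quasi-likelihood test, Benjamini-Hochberg), so Chrna4 was not called. The means of log2 CPM differed by -3.72, with p = 0.0476 in a two-sided exact permutation test of 5 against 5 livers, whose smallest possible p is 0.00794. Without replicate 5 the log2 fold change was -4.03, at which Chrna4 was still not called, and the difference of mean log2 CPM was -4.83. That liver was singled out by genes that include Chrna4, so leaving it out favours a difference. No test of Chrna4 without it is therefore used. Among all genes 0.212% were called with CORT under αACBP, and 2.74% had groups that did not overlap. Leaving out replicate 5 raised the genes called from 34 to 153, or 0.952%.

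The antibody itself did not separate the Chrna4 levels of the livers. αACBP + CORT and Isotype + CORT livers overlapped, with 2 of the 5 αACBP livers below 4 of the 5 isotype livers. The log2 fold change between them was 3.80 ± 1.26 (SE), and it was 1.38 without αACBP + CORT replicate 5. Between αACBP + Vehicle and Isotype + Vehicle it was -0.88 ± 1.10 (SE), and -0.10 without Isotype + Vehicle replicate 4, with overlapping groups. In order of their medians the groups stood at 171 (Isotype + Vehicle), 125 (αACBP + Vehicle), 6.37 (αACBP + CORT) and 3.85 CPM (Isotype + CORT). Both neighbours within a treatment overlapped, and so did αACBP + Vehicle and αACBP + CORT through replicate 5. Of all genes, 0.597% (96 genes) were called with αACBP under CORT and 1.3% under vehicle, and the groups did not overlap for 3.22% and 7.13% of genes. Without αACBP + CORT replicate 5, 60 genes (0.373%) were called with αACBP under CORT.

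Few genes varied as much as Chrna4 between livers treated alike. Its SD of log2 CPM within groups was 2.06, against a median of 0.429 over the 13871 other tested genes at a mean of 1 CPM or more. Of those genes 11 had a larger SD, and among the 8578 genes at 10 CPM or more it was 2. The liver with 0 counts adds to this value, since on the log scale it lies at -3.11.

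No other nicotinic subunit gene was called with CORT. Of the 16 subunit genes, 5 passed the filter, Chrna2, Chrna4, Chrnb1, Chrnb2 and Chrne. In every liver 9 had 0 counts, namely Chrna1, Chrna3, Chrna5, Chrna6, Chrna7, Chrnb3, Chrnb4, Chrnd and Chrng, and Chrna9 and Chrna10 reached at most 13 and 12 counts. The depth allows up to 0.205 CPM in a liver with 0 counts. With CORT under isotype 0 of the 4 other tested subunits were called by edgeR, where 1.94% of all genes were, and 0 by DESeq2's Wald test; Chrna2 alone had an unadjusted p below 0.05 (0.0498). Their log2 fold changes were 1.37 ± 0.67 (SE) for Chrna2, -1.10 ± 0.63 for Chrnb1, -0.22 ± 0.21 for Chrnb2 and -1.27 ± 0.74 for Chrne. In the other 3 comparisons 0 of 4 were called by either tool, and only Chrnb2 had an unadjusted p below 0.05 there. By edgeR 0.212% of all genes were called with CORT under αACBP, 0.597% with αACBP under CORT and 1.3% with αACBP under vehicle.

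Levels per kb of exon allow the subunits to be compared with each other. Chrna4 stood at 52.1 ± 48.7 CPM per kb (SD, n = 5) in Isotype + Vehicle livers, against 2.17 ± 0.385 for its partner Chrnb2, 2.33 ± 1.98 for Chrne, the adult endplate subunit, 1.11 ± 0.468 for Chrnb1 and 0.400 ± 0.175 for Chrna2. In Isotype + CORT livers Chrna4 was at 0.665 ± 0.511 CPM per kb and Chrnb2 at 1.86 ± 0.706. The ratio of Chrna4 to Chrnb2 per kb had a median of 14.8 in Isotype + Vehicle and 4.81 in αACBP + Vehicle livers, and it was above 1 in all 10 of them. Its median was 0.283 in Isotype + CORT and 0.404 in αACBP + CORT livers, where 1 and 2 livers lay above 1.

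**Figure D2:**
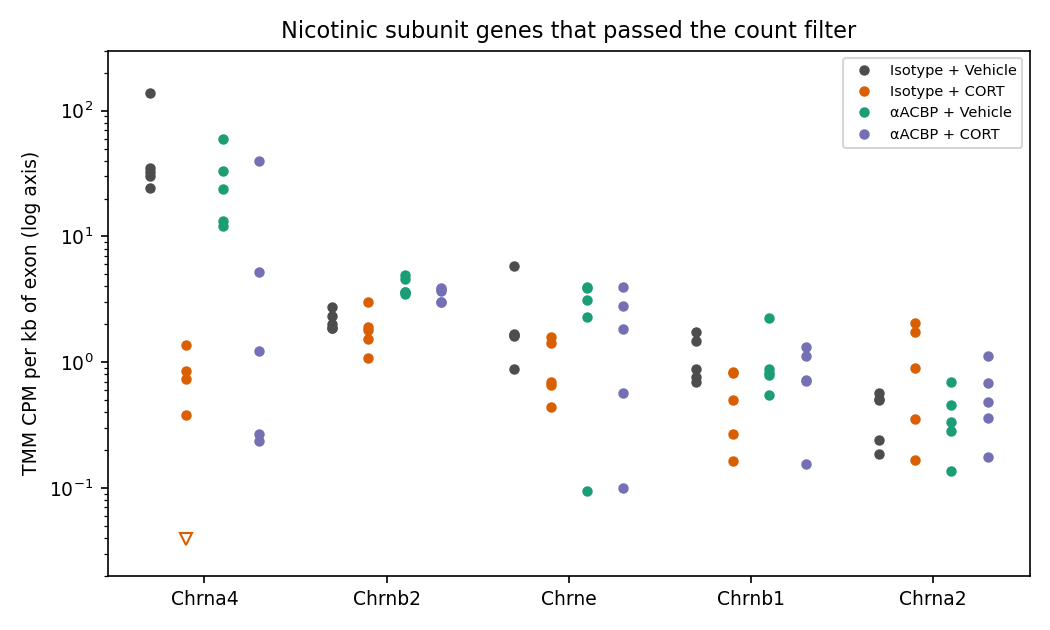
Level per liver, in TMM-scaled CPM per kb of exon on a log axis, of the 5 nicotinic subunit genes that passed the count filter, coloured by group. The open triangle is Chrna4 in the liver with 0 counts, drawn at the floor of 3 counts. Chrna4 spans 0 to 139 CPM per kb, while Chrnb2 stays between 1.09 and 4.95.

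Chrnb2 differed with the antibody and not detectably with CORT. It stood at 16.9, 19.8, 23.4, 15.9 and 15.8 CPM in Isotype + Vehicle livers and at 38.6, 41.9, 30.6, 29.2 and 30.7 CPM in αACBP + Vehicle livers. In Isotype + CORT livers it stood at 15.1, 13, 25.3, 9.19 and 16 CPM, and in αACBP + CORT livers at 32.6, 25.5, 32.0, 25.5 and 31.1 CPM. The antibody groups lay above the isotype groups without overlap under both treatments. Groups did not overlap for 7.13% of all genes under vehicle and 3.22% under CORT. The log2 fold change was 0.90 ± 0.21 (SE) under vehicle (edgeR adjusted p = 0.0158) and 0.90 ± 0.21 under CORT (edgeR adjusted p = 0.0306), so both fell short of the fold limit and were not called. Without αACBP + CORT replicate 5 the value under CORT was 0.87 with an edgeR adjusted p of 0.0768, and without Isotype + CORT replicate 3 it was 1.14, at which Chrnb2 was called. Under vehicle it was 0.809 to 0.997 with 1 liver left out, with edgeR adjusted p between 0.0151 and 0.0593.

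None of the remaining cholinergic genes was called. Chat and Slc5a7, which make acetylcholine and return choline to the nerve ending, had 0 counts in every liver, and of the muscarinic receptors only Chrm1 passed the filter. Of 3 tested genes for acetylcholine synthesis and breakdown, of 1 muscarinic receptor and of 3 tested modulators of receptor assembly, 0 were called in each comparison. The share of all genes called was 1.94% with CORT under isotype and 0.212% with CORT under αACBP. It was 0.597% with αACBP under CORT and 1.3% under vehicle, so 0 called among so few genes says little. At an unadjusted p below 0.05 stood 2, 0, 1 and 2 of the 3 synthesis and breakdown genes (CORT under isotype, CORT under αACBP, αACBP under CORT, αACBP under vehicle), and 0 of the others. Bche, the butyrylcholinesterase that hepatocytes secrete, stood at 127 CPM on average in Isotype + CORT and 74.3 in αACBP + CORT livers. Its log2 fold change there was -0.77 ± 0.18 (SE) with an edgeR adjusted p of 0.0263, which missed the fold limit; without αACBP + CORT replicate 5 it was -0.79 with an adjusted p of 0.0560.

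Of the tested genes around Chrna4, its closest neighbour alone was called with CORT under isotype. Within 200 kb the count table holds 22 other genes, of which 8 passed the filter. With CORT under isotype 1 of the 8 was called, Col20a1, where 1.94% of all genes were. In the other 3 comparisons 0 of 8 were called, where 0.212% (CORT under αACBP), 0.597% (αACBP under CORT) and 1.3% (αACBP under vehicle) of all genes were. Col20a1, which encodes a fibril-associated collagen, is transcribed towards Chrna4 from the plus strand and ends 17 bases from its 3′ end in GENCODE M39. It stood at 14.3, 19, 17.5, 43.7 and 15.8 CPM in Isotype + Vehicle and at 8, 7.61, 7.85, 5.61 and 8.76 CPM in Isotype + CORT livers, without overlap. The log2 fold change was -1.54 ± 0.32 (SE) with an edgeR adjusted p of 0.00654, and -1.14 without Isotype + Vehicle replicate 4, which was also the liver highest in Chrna4. Isotype + CORT replicate 1 had 117 counts of Col20a1 and 0 of Chrna4. Whether the counting assigned fragments of one gene to the other was not tested, and the strand setting of the counting is not stated in the sources used here.

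The other tested neighbours were not called. Ythdf1, Arfgap1, 9230112E08Rik and Ppdpf had log2 fold changes of 0.20, 0.08, 0.27 and -0.24 with CORT under isotype. Ptk6, Srms and Helz2 had -2.10, -0.97 and -0.36.

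**Figure D3:**
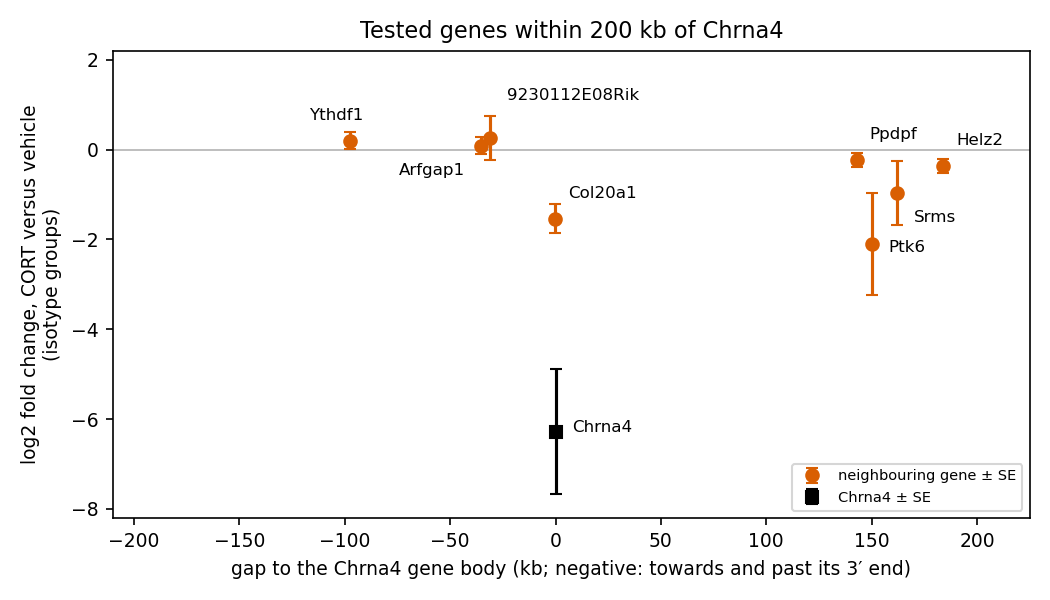
Log2 fold change with its SE for CORT against vehicle in the isotype groups, for the 8 tested genes within 200 kb, by the gap in kb between each gene body and Chrna4. Chrna4 (square) is at -6.28 and Col20a1 at -1.54, while the remaining points lie between -2.10 and 0.27.

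The genes most like Chrna4 across the 20 livers were led by 2 metabolic enzymes. Likeness was measured as Pearson's r of log2 CPM; it is a description, because all points share the 4 groups and the libraries, and the fold changes of genes chosen this way are not tested. The highest values were those of Pfkfb1 at 0.92 (rho = 0.88), the liver form of the bifunctional enzyme of fructose bisphosphate, and Upp2 at 0.91 (rho = 0.83), a uridine phosphorylase. They were followed by Fam83f (0.91), Papss2 (0.91), which makes the sulphate donor, Pltp (0.90), the phospholipid transfer protein, and Slco1a4 (0.88), an organic anion carrier. BC026585, Pax5, H2-Q1 and Fabp5 completed the list of 10 at 0.87 to 0.85. Only 0.0871% of tested genes reached 0.85. Leaving out the 2 livers farthest from the median of Chrna4, Isotype + CORT replicate 1 and αACBP + CORT replicate 4, gave 0.93 for Pfkfb1 and 0.86 for Upp2.

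Among the genes that ran most opposite to Chrna4 were Apoa4, an apolipoprotein, Lhx6, Camk2n1 and Bnip3, with r between -0.87 and -0.86.

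With each group's mean subtracted, so that only the differences between livers treated alike remained, Upp2 had the highest r with Chrna4. Its group-centred r was 0.92 (rho = 0.89). Without αACBP + CORT replicate 5 it was 0.87, below Fam83f (0.91) and Ppp1r12a (0.88), whose group-centred rho with all livers was also higher (0.91 and 0.92). Upp2 stood at 265, 300.2, 246, 333 and 330 CPM in Isotype + Vehicle, and at 27.2, 128, 98.2, 161 and 102 CPM in Isotype + CORT livers. It stood at 417, 565, 750, 358 and 657 CPM in αACBP + Vehicle, and at 77.8, 71.2, 133, 68.2 and 452 CPM in αACBP + CORT livers. In both CORT groups the liver lowest or highest in Chrna4 was also lowest or highest in Upp2, with αACBP + CORT replicate 4 lowest in both and replicate 5 highest in both.

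The other genes with the highest group-centred r were Ppp1r12a, Fam83f, Slco1a4, Cyth1, Stap2, Uba7, Slc23a1, Nsmaf and Gpatch2, at 0.88 to 0.83. Slco1a4 and Fam83f were on both lists. Ppp1r12a, a subunit of myosin phosphatase, had r of 0.61 over all livers, so its likeness lay within groups. The lowest values were those of Cp, the copper-carrying ferroxidase ceruloplasmin, at -0.86, and of Crip2, Rnf128, Cebpg and Slc16a1, a monocarboxylate carrier, at -0.85 to -0.83. The 10 highest lay between 0.77 and 0.91 and the 5 lowest between -0.79 and -0.75 without αACBP + CORT replicate 5. Among all tested genes 1.09% had an absolute group-centred r of at least 0.7.

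**Figure D4:**
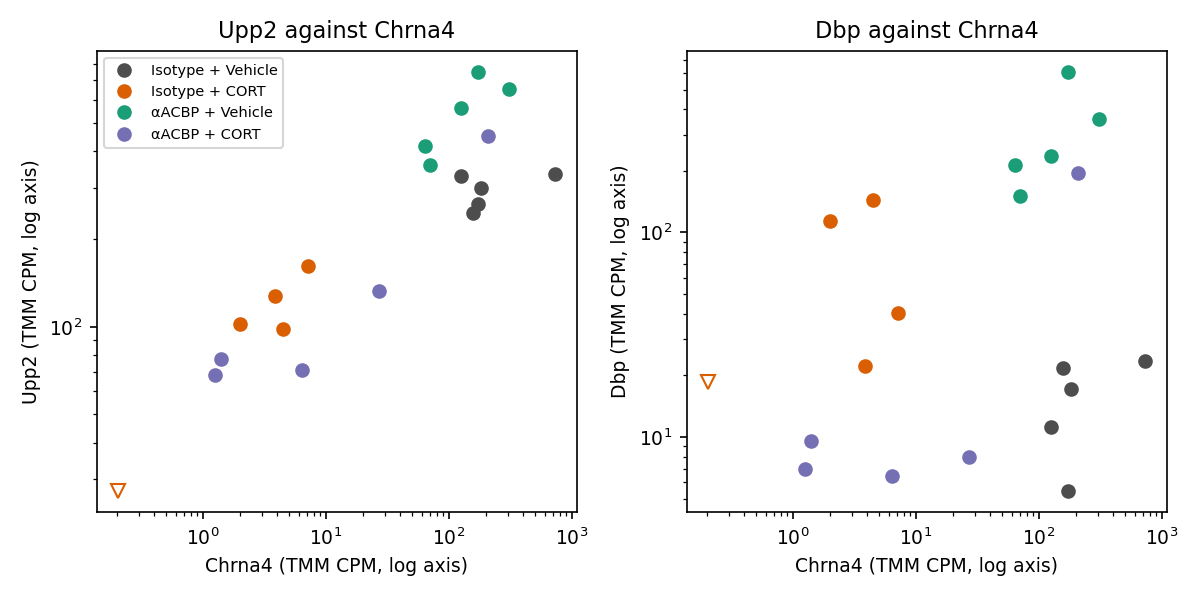
Upp2 (left) and Dbp (right) against Chrna4 in 20 livers, in TMM-scaled CPM on log axes, coloured by group, with the liver of 0 Chrna4 counts as an open triangle at the floor of 3 counts. Upp2 follows Chrna4 over all livers (r = 0.91) and within groups (group-centred r = 0.92). Between the vehicle groups it does not, being higher under αACBP (means 549 and 295 CPM) where Chrna4 is lower (148 and 272 CPM). Dbp follows Chrna4 within groups (group-centred r = 0.67, or 0.41 without αACBP + CORT replicate 5) and less over all livers (r = 0.31).

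Genes of the circadian clock differed between these livers and some moved with Chrna4 inside groups. The hour at which livers were taken is not given in the sources used here. Of 16 clock genes, 10 had a positive group-centred r with Chrna4, and their median was 0.31 against -0.03 over all tested genes. The highest were Per3 (0.70), Dbp (0.67), Tef (0.66) and Nr1d1 (0.65), and the lowest named were Cry1 (-0.51) and Clock (-0.49). These values leaned on αACBP + CORT replicate 5, without which Per3 was at 0.53, Dbp at 0.41, Tef at 0.40, Nr1d1 at 0.41, Cry1 at -0.41 and Clock at -0.31.

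Dbp, a transcription factor with a strong daily rhythm in liver, stood at 5.42, 17.3, 21.8, 23.5 and 11.2 CPM in Isotype + Vehicle and at 215, 236, 611, 151 and 361 CPM in αACBP + Vehicle livers. In αACBP + CORT livers it stood at 9.61, 6.44, 7.98, 6.98 and 195 CPM, replicate 5 being the only one in the range of αACBP + Vehicle. Isotype + CORT livers had 18.7, 22.2, 144, 40.4 and 114 CPM. Between the isotype and αACBP vehicle groups Dbp did not overlap, whereas Chrna4 did.

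With all livers, clock genes were called in 3 of the 4 comparisons. Dbp, Tef and Ciart rose and Arntl and Nfil3 fell with αACBP under vehicle, 5 of 16 against 1.3% of all genes. With CORT under isotype Hlf rose, and with CORT under αACBP Nfil3 rose, 1 of 16 each, against 1.94% and 0.212% of all genes. Without αACBP + CORT replicate 5 the count with CORT under αACBP was 8 of 16, against 0.952% of all genes, with Nfil3 and Arntl higher and Per3, Nr1d1, Nr1d2, Dbp, Tef and Ciart lower. That liver was set apart by its likeness to vehicle livers. Its clock genes lay near those of αACBP + Vehicle livers, so leaving it out favours these calls. Without that liver Nr1d2 and Tef were also called lower with αACBP under CORT, at -1.44 and -1.18, where 0 of 16 were called with it. The shares of all genes called there were 0.373% without it and 0.597% with it. A model with an index of clock genes as a further term gave a Chrna4 log2 fold change of -6.80 for CORT under isotype and of 0.65 for CORT under αACBP, where the sign changed. The index lay at 0.898 to 2.98 in αACBP + Vehicle livers and at -2.33 to -1.10 in αACBP + CORT replicates 1 to 4, with 1.36 in replicate 5, so clock state and CORT cannot be told apart in that comparison. The part of the clock genes in the Chrna4 levels was not tested further.

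Genes of fatty acid synthesis fell in part with CORT under isotype. Of 24 tested, 3 were called lower and 0 higher, where 1.94% of all genes were called, and the median log2 fold change of the 24 was -0.72 against 0.00221 over all genes. The 3 were Acss2, which activates acetate, at -1.88 ± 0.32 (SE), Acacb, an acetyl-CoA carboxylase, at -1.54 ± 0.37, and Pnpla3, a lipid droplet lipase, at -3.27 ± 0.74, with edgeR adjusted p of 0.00155, 0.0271 and 0.0225. Without Isotype + Vehicle replicate 4, the liver highest in Chrna4, 1 of the 24 was called. In the other 3 comparisons 0 of 24 were called by edgeR, while DESeq2's Wald test called 1 with αACBP under vehicle and 0 in the other 2. At an unadjusted p below 0.05 stood 6 (CORT under αACBP), 3 (αACBP under CORT) and 9 (αACBP under vehicle). The share of all genes below that unadjusted limit is not given here, so these counts have no background. Leaving out αACBP + CORT replicate 5 gave 1 call with CORT under αACBP, Acss2, at -1.18, where 0.952% of all genes were called.

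Acss2 was the gene of that list with the lowest adjusted p for CORT under isotype among the 3 called. It stood at 601, 523, 622, 604 and 529 CPM in Isotype + Vehicle and at 132, 217, 110.3, 195 and 129 CPM in Isotype + CORT livers, without overlap. In αACBP + CORT livers it stood at 88.7, 169, 202, 109 and 313 CPM, highest in replicate 5. Its group-centred r with Chrna4 was 0.67, beside 0.59 for Scd1, 0.58 for Acacb, 0.53 for Elovl6 and 0.50 for Srebf1. Without that liver the order changed, with Srebf1 at 0.72, Scd1 at 0.70, Acacb at 0.67, Acss2 at 0.54 and Elovl6 at 0.41. The median of the list was 0.14, with 15 positive and 9 negative values, and 0.15 without that liver.

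Genes of fasting and fatty acid oxidation lay mostly on the opposite side. Of 19 tested, 16 had a negative group-centred r, with a median of -0.41 (-0.37 without αACBP + CORT replicate 5), Cyp4a14 being at -0.64 (-0.53). With CORT under isotype 4 of 19 were called higher, Fgf21, Vnn1, Cyp4a10 and Cyp4a14, at log2 fold changes of 3.77, 2.08, 2.14 and 2.24, where 1.94% of all genes were called. With CORT under αACBP 0 of 19 were called, where 0.212% of all genes were, 8 having an unadjusted p below 0.05. Without replicate 5 the genes called higher there numbered 4, Ehhadh, Cyp4a10, Cyp4a14 and Plin2, where 0.952% of all genes were called. Under CORT, Cyp4a10, a fatty acid hydroxylase, was called lower with αACBP, where 0.597% of all genes were called. It was at -1.33 ± 0.29 (SE, edgeR adjusted p = 0.023), and without replicate 5 at -1.24 with an edgeR adjusted p of 0.0786. Ehhadh was called lower with αACBP under vehicle, at -1.04, where 1.3% of all genes were called.

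**Figure D5:**
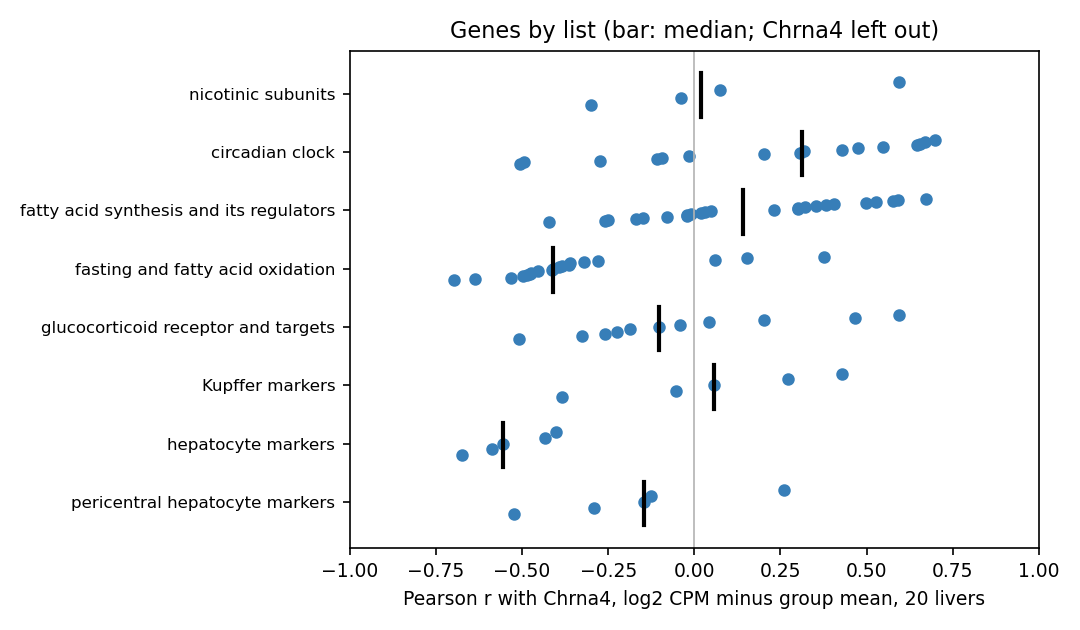
Group-centred Pearson r with Chrna4 over 20 livers for the tested genes of 8 lists, 1 point per gene and the list's median as a bar. Fasting genes (median -0.41) and hepatocyte markers (median -0.55) lie mostly below 0, clock genes (median 0.31) mostly above.

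The glucocorticoid receptor gene was not called in any comparison. Nr3c1 was at a mean of 48.9 CPM in Isotype + Vehicle and 48.5 in Isotype + CORT livers, and of 11 genes of the receptor and its targets 1, Fkbp5, was called with CORT under isotype, where 1.94% of all genes were, at 1.70 ± 0.27 (SE; edgeR adjusted p = 0.000722). Under αACBP 0 of the 11 were called with CORT by edgeR, where 0.212% of all genes were, 3 having an unadjusted p below 0.05, and Fkbp5 was at 0.28 (edgeR adjusted p = 0.72). Without αACBP + CORT replicate 5 Mt1 and Mt2 were called lower there, at -1.42 and -2.07, where 0.952% of all genes were called. The metal-binding genes Mt1 and Mt2 were called higher with αACBP under vehicle, at 1.38 and 2.12, where 1.3% of all genes were called.

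Markers of other cells in the tissue were compared with Chrna4 in the same way. Of 11 neuron and Schwann cell markers, 3 passed the filter and 5 had 0 counts in every liver, namely the neuronal genes Tubb3, Snap25, Th, Dbh and Gap43. The summed level of the 11 was 6.56 to 12.0 CPM in Isotype + Vehicle, 1.80 to 8.71 in Isotype + CORT, 4.58 to 12.6 in αACBP + Vehicle and 2.75 to 13.6 in αACBP + CORT livers. In both Isotype + Vehicle and αACBP + CORT the liver highest in Chrna4 held the highest sum, 12.0 and 13.6 CPM. Which liver held the highest sum in Isotype + CORT and αACBP + Vehicle is not given here. The part of these markers in the Chrna4 levels was not tested.

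Most Kupffer cell markers fell with CORT under isotype. Clec4f, Vsig4, Timd4 and Cd5l, 4 of 5, were called lower, where 1.94% of all genes were called, and their list's summed level was 252 to 418 CPM in Isotype + Vehicle and 89.6 to 284 in Isotype + CORT livers. With CORT under αACBP 0 of 5 were called, where 0.212% of all genes were, and 0 had an unadjusted p below 0.05. At that share 0 of 5 called says little about these markers. Clec4f was called higher with αACBP under CORT, at 1.42, and at 1.31 without replicate 5. Of all genes, 0.597% were called there with that liver and 0.373% without it. The median group-centred r of the list with Chrna4 was 0.06, or -0.04 without that liver. B cell markers summed to 17.7 to 34.6 CPM in Isotype + Vehicle and to 1.37 to 12.4 in Isotype + CORT livers, Cd22 being called lower, and their median group-centred r was -0.0019, or -0.26 without αACBP + CORT replicate 5. The 5 hepatocyte markers all had a negative group-centred r, the median being -0.55 (-0.50 without that liver). In each comparison 0 of them were called, where 0.212% to 1.94% of all genes were. The part of any of these cell types in the Chrna4 levels was not tested.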

How the data were processed

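Liver RNA was sequenced by the authors as read pairs, aligned with HISAT2 and assigned to genes by HTSeq-count (union setting), and the deposited table holds these raw counts. The study's methods name GRCm39 and the submitters' processing notes mm10; the annotation release and strand setting are not given in the sources used here. Coordinates are those of GENCODE M39, which holds 91.4% of the table's identifiers. Lines of pairs on no gene were left out; a median of 61.2% of a liver's total stood in them. Each of the table's columns was matched to a mouse by name, leaving 0 unused.

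Counts were analysed in R 4.3.3 with edgeR 4.0.16 (TMM, count filter, robust quasi-likelihood fit) in 1 model of the 4 groups, adjusted over all 16071 tested genes. Log2 CPM used a prior count of 2. CPM per kb used the union of exons. Chrna4, the gene lists and the tests were chosen with earlier results of these data known, and no list was tested as a set. The genes named are the nicotinic subunits, tested genes within 200 kb, the 10 highest and 5 lowest by each r at a mean of at least 1 CPM without predicted genes, pseudogenes and receptor segments, and, of each list, the called genes and up to 5 of largest group-centred r. Alternatives were DESeq2 1.42.0 (size factors or Wald test), other filters and library sizes, only the groups compared, a replicate block, and each liver left out; the clock-gene index was added after the data had been seen. On simulated counts for CORT under αACBP over 16071 genes, the fit recovered 28.4% of the genes given a log2 change of 1, 76.1% of those given 2, and 71.2% of those given 3. The changed genes were drawn at random, so these rates do not apply to Chrna4, whose SD within groups was 2.06 against a median of 0.429. The lowest chi-square per degree of freedom between 2 livers of a group was 12.0, so all 20 were kept as separate samples. Some genes that the naming rule takes are not reported here.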

Additional observations from a re-analysis of the deposited data

Results flagged for a closer look

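Single livers stood far from the others of their group in 5 of the 32 sets of 5 livers examined, for 8 genes in 4 groups. Several of these genes were chosen by their likeness to Chrna4, and all 5 flags came from the livers named next. The sets are therefore not independent, and no chance rate is given for them. Isotype + Vehicle replicate 4 was far above its group in Chrna4, at 727 CPM, and in Col20a1, at 43.7 CPM. αACBP + CORT replicate 5 was far above its group in Chrna4, at 208 CPM, in Upp2, at 452 CPM, and in Dbp, at 195 CPM.

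The change with CORT of Nfil3, a repressor of D-box clock targets, differed between the antibodies. Clock state and CORT cannot be told apart in the αACBP groups. Nfil3 was itself called lower with αACBP under vehicle, at -1.14, where 1.3% of all genes were called. Its log2 fold change with CORT was higher under αACBP than under isotype by 1.80 ± 0.33 (SE; adjusted p = 0.0162 by edgeR's quasi-likelihood test of the interaction), from -0.35 under isotype and 1.45 under αACBP. Without αACBP + CORT replicate 5 the difference was 1.98 ± 0.30 (SE; edgeR adjusted p = 0.00108).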

How the results depend on the processing

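Chrna4 fell with CORT under isotype in every setting that could be run, with log2 fold changes between -6.80 and -6.28 in the settings that kept all livers and between -6.69 and -5.50 with 1 liver left out. That fall chose the gene and the settings reuse the same livers, so these ranges are no test of it. At a minimum of 10 counts in every liver Chrna4 drops out, because 1 liver has 0 counts, and no value could be had. For CORT under αACBP the values ranged from -4.03 to -1.14 with 1 liver left out, and Chrna4 was called in none of them. The clock-gene index turned that difference to 0.65 and moved αACBP against isotype under vehicle to -4.38, and the cause was not tested. For αACBP against isotype under CORT the range was 1.38 to 4.22, the lowest without αACBP + CORT replicate 5, and under vehicle it was -1.35 to -0.10.

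The genes of fatty acid synthesis called with CORT under isotype numbered 5 by DESeq2's Wald test and 1 to 4 with 1 liver left out, against 3. In the other 3 comparisons they numbered 0 to 1, and with αACBP under vehicle they numbered 1 by DESeq2's Wald test, without the count filter and with only the groups compared. Nicotinic subunits called numbered 0 with any liver left out, except 1 (Chrnb2) with αACBP under CORT without Isotype + CORT replicate 3, and the neighbours called with CORT under isotype numbered 1. The median group-centred r of the fatty acid synthesis genes was 0.48 without subtracting group means, and 0.14 to 0.24 with 1 liver left out.

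Directions of differences that were not called turned with 1 liver left out for Col20a1 with αACBP under vehicle (-0.44 to 0.12) and, with αACBP under CORT, for Pnpla3 (-0.50 to 0.23), Acss2 (-0.14 to 0.34) and Upp2 (-0.24 to 0.86). Under the replicate block Chrna4 had -6.55 for CORT under isotype and -2.70 under αACBP. Same-numbered livers are of different mice and their deviations correlated between -0.0999 and 0.0969, so the numbers do not pair the livers; 3 of 20 livers matched best with a liver of their own number.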
